A study of Naumovozyma castellii with 14 samples.

Results

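The 272 transcripts described here are the cryptic unstable transcripts (CUTs) of the budding yeast Naumovozyma castellii that overlap no annotated mRNA on the opposite strand and no Xrn1-sensitive unstable transcript (XUT) on their own strand. They were picked by annotation type and coordinates alone, with no use of read values, from 1279 CUTs among 8343 distinct annotated features. Of the other CUTs, 651 are antisense to an mRNA without a XUT on their strand and 356 overlap a XUT on their strand. None of the 272 overlaps an mRNA on its own strand, so all of them lie in stretches that the annotation leaves free of coding genes.

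Strand-specific total RNA-seq was available for 14 cultures, all of the genotype MATalpha ura3-1 ho, grown at 25 °C in rich medium to an optical density of 0.5. They were 4 wild-type libraries (WT, strain YAM2478), 4 libraries of an upf1::kanMX6 deletion (upf1, YAM2890), 2 libraries each of these strains after 15 min in 100 µg/mL cycloheximide (WT CHX and upf1 CHX), and 2 libraries of a dcr1 upf1::kanMX6 strain (dcr1 upf1, YAM2943). Upf1 is the RNA helicase at the core of nonsense-mediated decay, the pathway that degrades translated RNAs with premature or unusual stop codons, cycloheximide blocks translation elongation, and Dcr1 is the Dicer nuclease of RNA interference, which N. castellii has kept. Each strain label stands for 1 named strain, and nothing in the labels says whether the libraries of a group came from separate transformants, so the p-values below measure the spread between libraries.

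In S. cerevisiae, CUTs arise largely from nucleosome-depleted promoters that fire in both directions. The Nrd1-Nab3-Sen1 complex ends their transcription early, the TRAMP complex adds a short tail of adenosines, and the nuclear exosome with Rrp6 degrades them, so they are scarce in wild-type cells. Transcripts that escape this route reach the cytoplasm, where decapping, the exonuclease Xrn1 and, for translated ones, nonsense-mediated decay can act on them. No exosome mutant is among the 5 groups, so the CUT label itself could not be checked with these libraries.

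The CUTs were short and lay close to gene starts. Their length ran from just over 200 to 3037 bases with a median of 350.5 bases (quartiles 265.5 and 471), and 117 were on the plus strand and 155 on the minus strand. All 10 chromosomes carried some, from 13 on chromosome 10 to 58 on chromosome 1. The distance from the 5′ end of a CUT to the nearest mRNA start on either strand had a median of 429.5 bases. It was up to 200 bases for 27 CUTs, above 200 and up to 500 for 130, above 500 and up to 1000 for 59, and above 1000 for 56. Because the annotated mRNA spans are coding (97.59% of their lengths are multiples of 3, against 36.76% for these CUTs), "start" means the coding start, and reads of an untranslated end of a neighbouring gene cannot be told apart from reads of a CUT that overlaps it.

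Most of these CUTs pointed away from the gene they started next to, a layout that the selection itself favours. A CUT that overlaps no mRNA can start downstream of a gene start only past the end of that gene. No background share was computed for other CUTs or other intergenic positions. Of the 272, 194 (71.3%) were divergent, that is on the strand opposite to the nearest mRNA and upstream of its start, at a median distance of 317.5 bases (2 to 5155). A further 50 (18.4%) lay upstream of the nearest start on the same strand (tandem upstream, median 631.5 bases). Another 21 started downstream of the nearest start on the same strand (tandem downstream, median 1346 bases), and 7 were convergent (median 1449 bases). All 27 CUTs within 200 bases of a start were divergent, but the selection leaves little room for any other outcome. Every CUT is longer than 200 bases, so one beginning that close upstream on the same strand would run into the gene. One beginning that close downstream, on either strand, would need a gene shorter than 200 bases. The 272 CUTs had 243 distinct nearest mRNAs, and 49 of them shared one with another CUT, so they are not 272 independent loci.

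**Figure D1:**
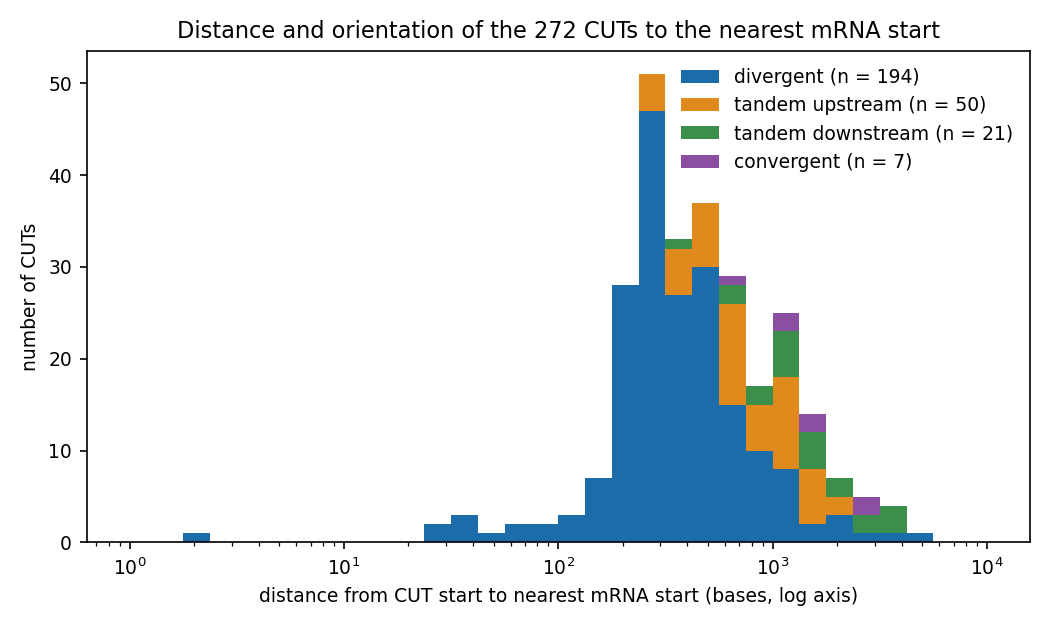
Number of CUTs (y axis) by distance in bases from the CUT 5′ end to the nearest mRNA start (x axis, log scale), stacked by orientation. Divergent CUTs (194 of 272) fill the bins near their median of 317.5 bases, while tandem and convergent ones lie farther out. Because no CUT overlaps an mRNA, part of this difference is set by the selection.

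The gene ahead of a CUT was often on its own strand too. For 185 CUTs the next mRNA downstream was on the same strand, at a median gap of 440 bases, and for 39 of these the gap was 200 bases or less. In 155 cases the CUT sat between a gene behind it on the opposite strand and a gene ahead on its own strand, which is the layout of a divergent gene pair with the CUT inside the shared promoter region. Both neighbours were on the opposite strand for 62 CUTs, both on the same strand for 30, and for 15 the gene behind was on the same strand and the gene ahead on the opposite one. The remaining 10 had no mRNA on one side. A non-coding transcript on the opposite strand overlapped 72 of the 272.

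Reads were few. Recovered read totals per library ran from 7895089 to 22437334 over all features, and the 272 CUTs together took between 4298 and 22562 of them. Their share of all reads was 0.0538% ± 0.00215 (SD, n = 4) in WT, 0.0901% ± 0.00329 (n = 4) in upf1, 0.0860% ± 0.000918 (n = 2) in WT CHX, 0.106% ± 0.00141 (n = 2) in upf1 CHX and 0.0972% ± 0.000876 (n = 2) in dcr1 upf1. The 4 WT libraries lay below the 10 others. The share gives most weight to abundant CUTs. Over the 14 libraries together the most abundant CUT held 35174 reads, against a median of 225 in the 175 CUTs tested below. NAM7, which encodes Upf1, had 0 reads in all 8 libraries labelled upf1-deleted and a mean density of 0.522 in WT. No gene named DCR1 was found in the table, so the dcr1 deletion was not checked.

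The deposited values are densities, that is reads divided by a library size factor and by the feature length, and levels below are in that unit. The median density over all 272 CUTs was 0.0132 ± 0.00120 (SD, n = 4) in WT, 0.0214 ± 0.000701 (n = 4) in upf1, 0.0449 ± 0.000659 (n = 2) in WT CHX, 0.0456 ± 0.00183 (n = 2) in upf1 CHX and 0.0204 ± 0.00241 (n = 2) in dcr1 upf1. The order of the groups was therefore WT lowest, then dcr1 upf1 and upf1, whose libraries overlapped, then WT CHX and upf1 CHX, whose libraries also overlapped. The CUTs stood well under their neighbours, with a median density in WT of 5.53% of that of the mRNA with the nearest start (7.09% in WT CHX), and 22 CUTs exceeded it in WT. Densities are averages over a culture, so fewer cells with a transcript and less of it per cell cannot be told apart.

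**Figure D2:**
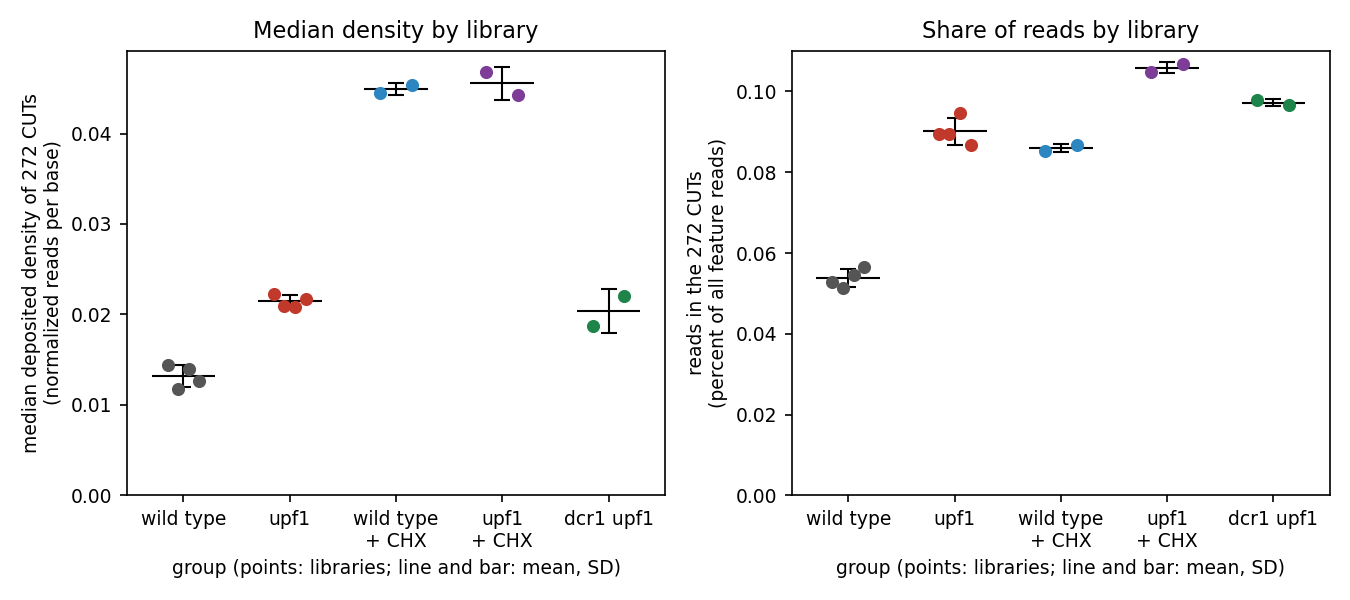
Left, median deposited density of the 272 CUTs in each library; right, percent of all feature reads that fell in them; points are libraries, lines and bars are group mean and SD. The 4 WT libraries are lowest in both panels, and the median density of the CHX groups is above that of all others.

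Differences between groups were tested with limma on log2(density + 0.02) over every feature with a mean density of at least 0.02, which compresses the fold changes of low features, and p-values were adjusted by Benjamini-Hochberg over all 7518 features tested. Of the 272 CUTs 175 passed this filter. The 97 that did not held at most 277 reads over the 14 libraries together (median 58), and 2 of them had none. Since a CUT can pass through the groups in which it is high, counts below describe the 175 and are set beside the rate over all features.

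The first question of the design is which transcripts depend on Upf1. Without cycloheximide, 73 of the 175 tested CUTs were higher in upf1 than in WT and 0 were lower at an adjusted p under 0.05 in limma, against 40.5% of all tested features higher and 0.585% lower, so the share of 41.7% is close to the background. At an unadjusted p under 0.05 there were 86 higher and 1 lower, and limma-voom on the recovered reads called 62 and 0. The median log2 fold change of the 175 was 0.45 (quartiles 0.17 and 0.74), against 0.25 over all features. Of the 73, 29 rose at least 2-fold, as did 1167 of the 3042 features called higher. The log2 fold change was above 0 for 153 of the 175, against 6294 of the 7518 features. Of all 272, including the 97 untested, 217 had a higher mean in upf1 and 52 a lower one. The labels name no batches, but replicates 1 and 2 deviated from the group means apart from replicates 3 and 4. With replicates 1 and 2 alone 76 CUTs were higher and 2 lower, and with replicates 3 and 4 alone 61 and 0.

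The libraries of the 2 groups did not overlap for 61 of the tested CUTs, all higher in upf1, where 36.7% of all features did so in that direction. The other CUTs showed a wide range by the same test. XUT-overlapping ones were higher in 263 of 330 tested (79.7%, median log2 fold change 0.90), and antisense ones without a XUT in 102 of 347 (29.4%, median 0.28). The difference between these classes was not tested.

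CUT0283 (chromosome 1, 2558734 to 2559072, minus strand) was the most abundant CUT with a large change. It starts 292 bases from the start of CYC1, the gene for cytochrome c, on the opposite strand, and runs toward ANB1, which encodes a form of the translation factor eIF5A made at low oxygen in S. cerevisiae. Its density was 1.03, 0.995, 0.899 and 1.13 in the WT libraries, 4.07, 4.11, 5.02 and 4.44 in upf1, 5.10 and 5.26 in WT CHX, 8.22 and 7.88 in upf1 CHX, and 3.60 and 3.93 in dcr1 upf1. Every library without Upf1 or with cycloheximide lay above the 4 untreated WT ones. The log2 fold change in upf1 was 2.10 (SE 0.10, adjusted p = 2.20e-11). CYC1 itself changed by 0.32 (adjusted p = 0.0156), from a mean density of 4.06 to 5.10, while ANB1, named after its value was seen, changed by 1.73 (adjusted p = 1.23e-09).

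CUT0908 (chromosome 5, 827105 to 829283, plus strand, 2179 bases) starts 224 bases from ZUO1, the gene for a ribosome-bound J-protein chaperone. Its density was 0.0726, 0.0573, 0.0546 and 0.0596 in WT, 0.329, 0.332, 0.422 and 0.391 in upf1, 0.704 and 0.689 in WT CHX, 0.858 and 0.752 in upf1 CHX, and 0.324 and 0.351 in dcr1 upf1. Again no other library came down to the WT range. It rose by 2.26 on the log2 scale in upf1 (SE 0.11, adjusted p = 2.54e-11), whereas ZUO1 stood at −0.05 and did not pass the test.

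CUT0642 (chromosome 3, 910327 to 910910, plus strand) lies 465 bases from RTC1, which encodes a subunit of the SEA complex in S. cerevisiae, and reads toward BSC6, 117 bases ahead. Its WT densities were 0.0108, 0.0283, 0.0275 and 0.0144, from 41 reads in all, and its upf1 densities were 0.217, 0.193, 0.228 and 0.179. The groups were far apart, with a log2 fold change of 2.50 (SE 0.15, adjusted p = 3.75e-10). RTC1 stood at 0.08 and did not pass the test, and BSC6, named after its value was seen, changed by 0.72 (adjusted p = 0.000225).

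CUT0912 (chromosome 6, 3941 to 4686, plus strand), next to the chromosome end and 186 bases from NCAS_0F00100, had WT densities of 0.0297, 0.0207, 0.0359 and 0.0370 and upf1 densities of 0.243, 0.234, 0.259 and 0.338. Its log2 fold change, 2.50 (SE 0.14, adjusted p = 8.33e-11), equalled that of CUT0642. The nearest mRNA rose less, by 0.68.

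The 6 other CUTs among the 10 with the largest rise in upf1 changed by 1.80 to 2.29 on the log2 scale, with SEs of 0.11 to 0.20 and no overlap of libraries. CUT0749 lies 237 bases from SEH1, a gene for a nuclear pore and SEA complex subunit, and rose by 2.06 while SEH1 stood at 0.05 and did not pass the test. CUT0402 begins 577 bases ahead of MCM7, a gene for a subunit of the replicative helicase, on the same strand and ends 139 bases before it. It rose by 2.04 and MCM7 by 0.70. CUT0733 (2.29) begins 319 bases ahead of NCAS_0D02420, which stood at −0.01 and did not pass the test. CUT1109 (2.09) and CUT1110 (2.05) lie one after the other ahead of NCAS_0H00120, which rose by 1.28 and share that neighbour. CUT0676 (1.80), 2994 bases long, is divergent from NCAS_0C05990, which rose by 1.34.

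**Figure D3:**
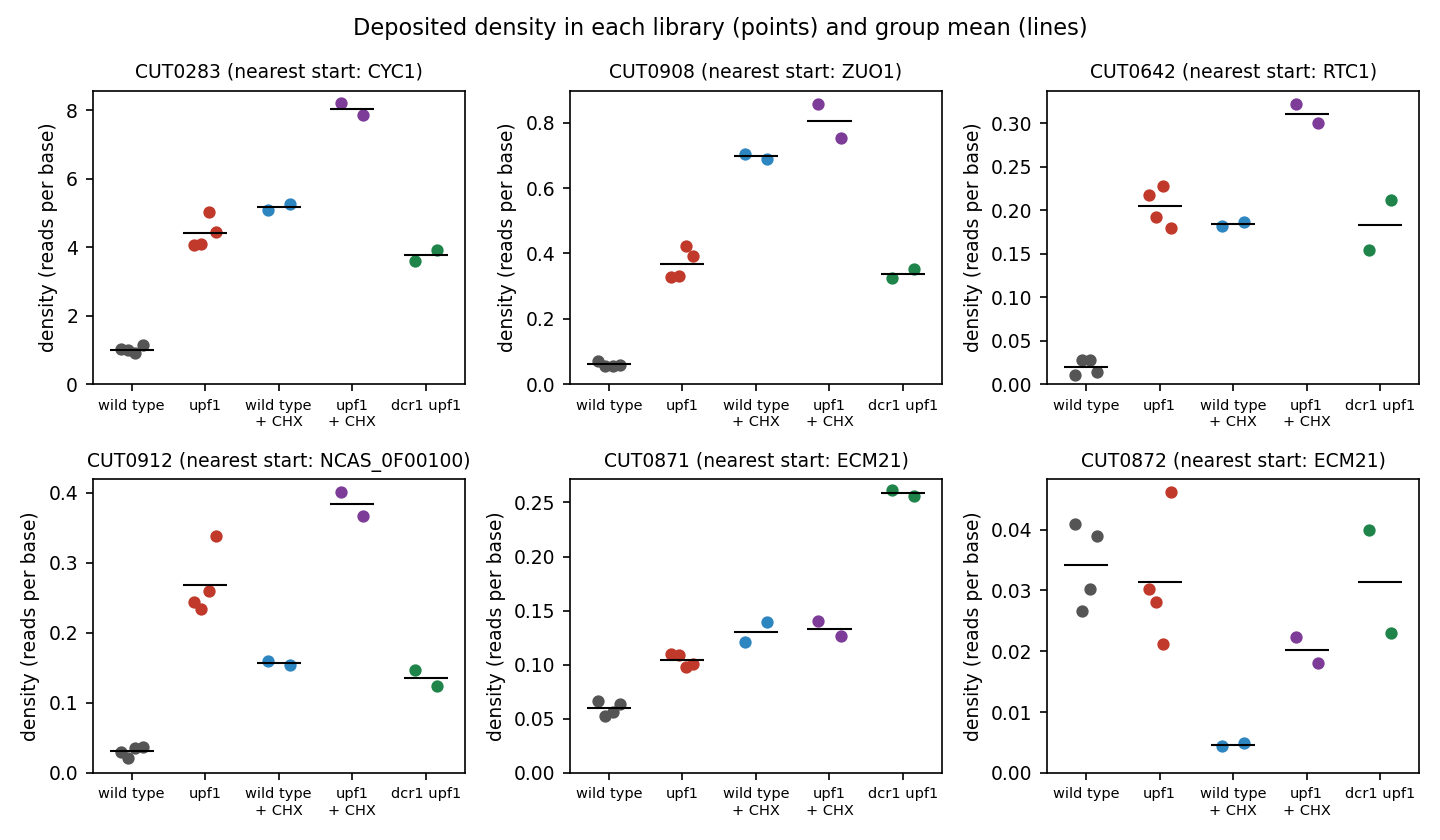
Deposited density (y axis, reads per base, from 0) of 6 CUTs in each of the 14 libraries (points) with group means (lines). CUT0283, CUT0908, CUT0642 and CUT0912 are lowest in WT, CUT0871 is highest in dcr1 upf1 and CUT0872 is lowest in WT CHX.

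Besides CUT0283, the 5 CUTs with the highest WT level were CUT0055, CUT1066, CUT0700 and CUT0709, of which CUT0709 rose in upf1. CUT0055 (density 2.52, 1.82, 3.19 and 3.10 in WT, and 1.64, 2.04, 3.60 and 2.77 in upf1) had overlapping libraries and passed no test in the 6 comparisons. It begins 561 bases ahead of NCAS_0A02300, whose WT mean of 43.6 was far higher. CUT1066, 179 bases from PGA2, an essential gene of protein traffic in S. cerevisiae, stood at a mean of 2.32 in WT and at a log2 fold change of 0.22 in upf1 (adjusted p = 0.165). CUT0700 had a WT mean of 0.514 and a log2 fold change of 0.06 (adjusted p = 0.768). CUT0709, with a WT mean of 0.104, rose by 0.63, next to NCAS_0D01620, which rose by 3.28.

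Orientation and distance gave no single pattern. In upf1 against WT, 53 of 129 tested divergent CUTs were higher (median log2 fold change 0.45), 10 of 30 tandem upstream (0.32), 8 of 11 tandem downstream (0.66) and 2 of 5 convergent. By distance to the nearest start the counts were 9 of 15 up to 200 bases, 38 of 89 from there to 500, 12 of 40 from there to 1000 and 14 of 31 beyond. By length 22 of 54 were higher among CUTs up to 300 bases (median 0.46), 26 of 73 from there to 500 (median 0.35) and 25 of 48 beyond (median 0.54). None of these differences was tested.

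Of the CUTs closest to a start in each orientation, the divergent and the tandem downstream ones were called, with some calls depending on the fit. CUT0633 begins 43 bases from GYP8, a gene for a Rab GTPase-activating protein, and runs toward STE2, the alpha-factor receptor gene. Its density was 0.0267, 0.00803, 0.0260 and 0.0234 in WT and 0.0684, 0.107, 0.114 and 0.102 in upf1, and it rose by 1.53 (adjusted p = 1.55e-06) while GYP8 rose by 0.39. The 2 sets of libraries did not overlap, and STE2, named after its value was seen, rose by 1.74. CUT0267, 83 bases from PDR15, a gene for a drug-transporting ATPase, rose by 0.74, a call lost with replicates 3 and 4 alone. CUT0405, 40 bases from TOS1, a cell wall protein gene, had overlapping libraries and a log2 fold change of 0.50 (adjusted p = 0.0496 in limma). Its call was lost without any one of WT replicates 1, 2 and 4 or upf1 replicates 1 and 2. It was also lost with a pseudocount of 0.1, with libraries scaled to mRNAs and with replicates 3 and 4 alone.

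In the tandem upstream class CUT0188 (YPF1, a gene for a protease of the endoplasmic reticulum) and CUT0462 (AIM45, a mitochondrial protein gene) did not pass the test in upf1, with log2 fold changes of −0.01 and 0.12, while CUT0733, between them in distance, rose by 2.29 as given above. The closest tandem downstream ones rose, CUT1008 by 0.59, CUT1197 by 0.89 and CUT0449 by 1.29. The call of CUT1008 was lost without WT replicate 2, WT replicate 4 or upf1 replicate 3. It was also lost with a pseudocount of 0.1 and in limma-voom. With replicates 1 and 2 alone the calls of CUT1008 and CUT1197 were both lost. The closest convergent ones, CUT0806, CUT0820 beside PRE9, a proteasome subunit gene, and CUT0922 beside MIC26, a gene of the mitochondrial inner membrane, stood at 0.30, 0.18 and 0.25 and did not pass.

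Of the 29 CUTs called higher in upf1 with a rise of at least 2-fold, 9 lay near chromosome ends and 20 farther in. Counting distance to the first base or to the outermost annotated feature, 42 of the 272 lay within 20 kb of an end, a window set after the values were seen. Of their 17 tested members 14 were higher in upf1 (median log2 fold change 1.32), and the 3 that did not pass were CUT0003, CUT1010 and CUT1278. Of the 158 tested CUTs farther in, 59 were higher (median 0.39). Among mRNAs the counts were 89 of 169 tested within 20 kb of an end and 1881 of 5277 farther in. The other 25 CUTs near ends were not tested, and a CUT can pass the filter through the groups in which it is high. Over all 42 the mean was higher in upf1 for 33 (78.6%), against 184 of 230 farther in (80.0%). Sequences near ends often have near-identical copies, between which the authors' counting may split or drop reads, so these values are uncertain, and the difference between ends and the interior was not tested.

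CUTs and their nearest mRNAs were often called apart. For 174 pairs in which both were tested, both rose in upf1 in 39, the CUT alone in 33, the mRNA alone in 38, and neither passed in 59. The CUT's log2 fold change exceeded that of its mRNA in 97 of the 174. The added 0.02 compresses the changes of the CUTs more, so for rising pairs this count leans toward the mRNA. In WT the median density was 0.0132 for all 272 CUTs and 0.273 for the nearest mRNAs of the tested ones. Across pairs Spearman's rho between the 2 log2 fold changes was 0.33, and 0.30 over the 129 divergent pairs, given as a description since the points share libraries and 49 CUTs share a neighbour. With the same-strand gene ahead of the CUT, rho was 0.31 over 115 pairs, and both rose in 28, the CUT alone in 25 and the gene alone in 23.

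**Figure D4:**
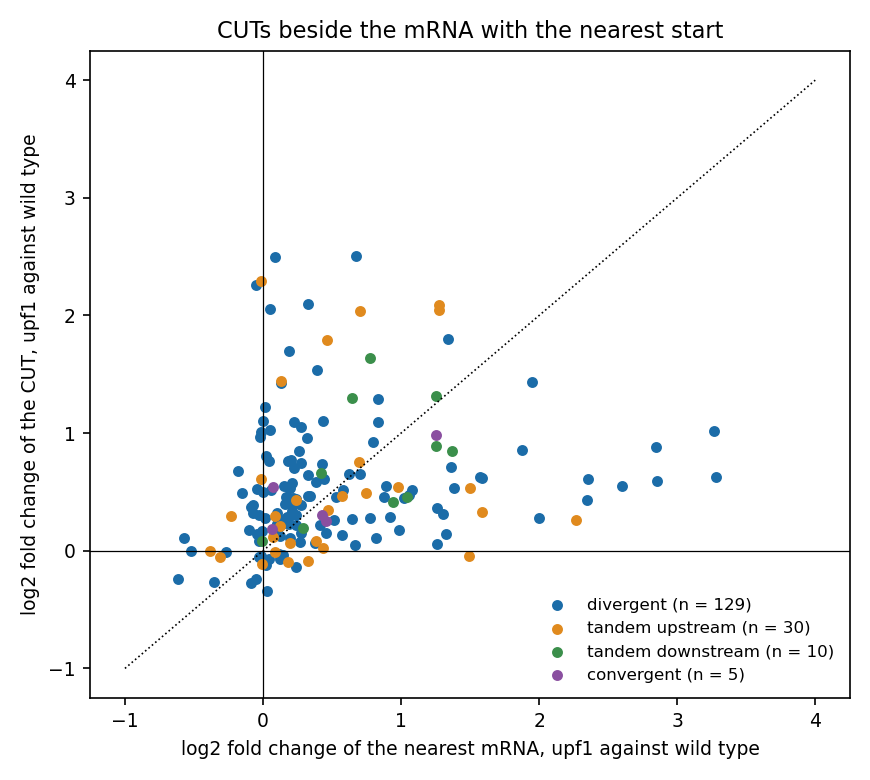
Log2 fold change of each tested CUT in upf1 against wild type (y axis) against that of the mRNA with the nearest start (x axis), coloured by orientation; the dotted line marks equal change. Points spread on both sides of the line, with the CUT above it in 97 of 174 pairs.

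Under the deposited scaling most of these CUTs were higher with cycloheximide in WT cells, as were most features. In WT CHX against WT 146 of the 175 tested CUTs were higher and 2 lower (limma, adjusted p under 0.05), against 94.1% of all features higher and 0.146% lower. The median log2 fold change was 1.22 for the CUTs and 1.34 over all features, and 262 of all 272 had a higher mean. These 2 medians cannot be ranked, because the added 0.02 compresses low features more. The median density went from 0.0132 in WT to 0.0449 in WT CHX for the 272 CUTs. For mRNAs it went from 0.256 to 0.756. The log2 fold change was above 0 for 173 of the 175, against 7433 of the 7518 features. What the deposited size factors rest on is not stated in the sources used here, and under them the median tested mRNA itself stood at 1.35 in this comparison. When libraries were scaled to the median ratio of the mRNAs instead, the CUT median was 0.32 with 49 CUTs higher and 8 lower. The share of all features called under that scaling was not counted in any comparison. In upf1 the same treatment left 108 higher and 0 lower (median 0.64) against 84.4% and 0.239% of all features, and 11 higher and 17 lower after scaling to mRNAs. At an unadjusted p under 0.05 these were 109 and 0, and limma-voom called 107 and 0.

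The largest rises in WT CHX were those of CUT0908 (log2 fold change 3.15), CUT0402 (2.83), CUT0076 (2.45), CUT0642 (2.37) and CUT0283 (2.34). Scaled to mRNAs these were 1.92, 1.70, 1.64, 1.34 and 0.98, and all 5 still passed the test. CUT0076, in the region between SRP40 and the peptide transporter gene PTR2, had few reads without the drug, with densities of 0, 0.00321, 0.00833 and 0.00749 in WT and 0.00671, 0.00208, 0.0203 and 0.00495 in upf1. It stood at 0.103 and 0.125 in WT CHX and at 0.102 and 0.0747 in upf1 CHX, above every untreated library, and PTR2 rose by 2.81 in WT CHX. Its 5 WT reads leave the size of the fold change loosely set.

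In upf1 CHX against upf1 the leading CUTs were CUT0254, CUT0946, CUT0076, CUT0462 and CUT0313. CUT0254, 254 bases from ROX1, the repressor gene of hypoxic transcription, had densities of 0.0326, 0.0456, 0.0178 and 0.00361 in upf1 and 0.274 and 0.193 in upf1 CHX. Treated and untreated libraries were well apart, and the log2 fold change was 2.58 (SE 0.32, adjusted p = 5.25e-06), with ROX1 at 1.73. CUT0946, 470 bases from the ribosomal protein gene RPS15, had 0.0181, 0.0186, 0.0264 and 0.0201 in upf1 and 0.185 and 0.170 in upf1 CHX. It rose by 2.28 (1.49 when scaled to mRNAs), while RPS15 stood at 0.31 and did not pass the test. The call of CUT0462 in this comparison (1.92) was lost when libraries were scaled to mRNAs.

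CUT0872 and CUT0550 were the tested CUTs that fell in WT CHX, and the count of 2 became 1 without WT replicate 1 or WT CHX replicate 2. CUT0872 (chromosome 5, 587767 to 588075, plus strand), 2253 bases ahead of ECM21, the gene for an adaptor of the ubiquitin ligase Rsp5, had densities of 0.0410, 0.0267, 0.0303 and 0.0389 in WT and 0.00447 and 0.00483 in WT CHX. These rest on 37 and 2 reads, a ratio of 0.136 with an exact 95% counting interval of 0.0158 to 0.525. It fell by 1.13 on the log2 scale (SE 0.21, adjusted p = 8.47e-05), and ECM21 rose by 1.12. CUT0550, 223 bases from the glutaredoxin gene GRX1 and named after its value was seen, had a log2 fold change of −0.68 (adjusted p = 0.0224), with 1 WT library (0.0152) inside the WT CHX range of 0.0102 to 0.0157.

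With cycloheximide in both strains, the difference between upf1 and WT was small for most of these CUTs. In upf1 CHX against WT CHX 10 of the 175 were higher and 0 lower (limma), against 4.27% and 0.984% of all features, with a median log2 fold change of −0.02 (−0.09 over all features). At an unadjusted p under 0.05 there were 22 higher and 4 lower, and limma-voom called 6 and 0. The count depended on the fit. It was 16 with the replicate number as a block, and it was 2, 4, 2 and 3 without WT CHX replicate 1, WT CHX replicate 2, upf1 CHX replicate 1 and upf1 CHX replicate 2.

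All 10 were also among the 73 that rose without the drug, which is 100% of the shorter list and 13.7% of the longer one. The median log2 fold change of the 73 was 0.85 without cycloheximide and 0.18 with it. The first value is raised by the choice of the 73 on that same comparison, and over all 175 tested CUTs the medians were 0.45 and −0.02. The 2 comparisons share no library, but they share 1 estimate of the spread per feature and the same filter, so they are not independent tests. The overlap of such lists over all features was not counted. Of the 10, 6 lay within 20 kb of a chromosome end, a window set after the values were seen. They are CUT0327, CUT0329, CUT0912, CUT1109, CUT1195 and CUT1196, the last named after its value was seen. Among tested mRNAs 22 of 169 within 20 kb of an end and 171 of 5277 farther in were higher in the same comparison. Only 17 of the 42 CUTs near ends were tested, and a CUT can pass the filter through the groups in which it is high. Over all 42 the mean was higher in upf1 CHX than in WT CHX for 28, against 107 of 230 farther in. The difference between ends and the interior was not tested.

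**Figure D5:**
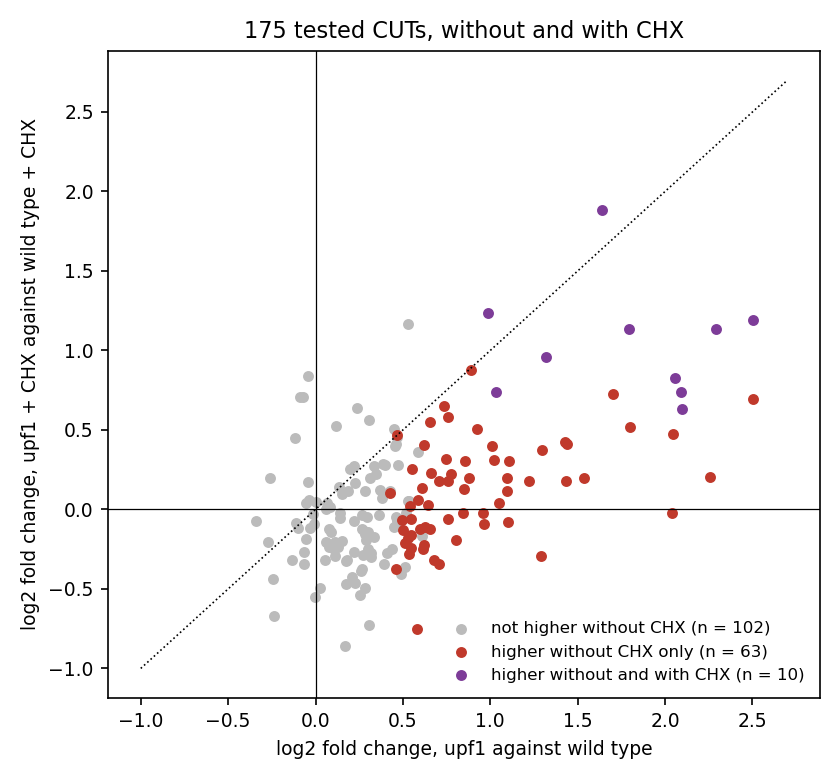
Log2 fold change of upf1 against wild type without CHX (x axis) and with CHX in both strains (y axis) for the 175 tested CUTs; the dotted line marks equal change. The 73 CUTs higher without CHX were chosen on the x axis, so their place below the line is in part fixed by that choice, and the 10 that were higher in both comparisons are drawn in purple.

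CUT0327 (chromosome 10, 7139 to 7341, minus strand) led this group. Its density was 0.0104, 0.0102, 0.00659 and 0.0296 in WT, 0.0601, 0.0560, 0.103 and 0.133 in upf1, 0.00680 and 0.0294 in WT CHX, and 0.156 and 0.0827 in upf1 CHX. Libraries with and without Upf1 were apart under both conditions, and WT CHX did not exceed the WT range. The WT and WT CHX values rest on few reads. In WT CHX replicate 1, 1 read in a CUT of the median length of 350.5 bases is a density of 0.00394, and CUT0327 has 203 bases. The log2 fold change was 1.89 with cycloheximide (SE 0.40, adjusted p = 0.0117) and 1.64 without, and the call with the drug was lost without WT CHX replicate 1 or upf1 CHX replicate 1. CUT1195 (1.23), CUT0912 (1.19), CUT0329 (1.14) and CUT0733 (1.13) followed. CUT1195, of 259 bases, also rests on few reads, with a mean density of 0.0109 in WT CHX. The calls of CUT1195, CUT0329 and CUT0733 were each lost without at least 2 of the 4 treated libraries in turn, while that of CUT0912 held, and the call of CUT0733 was also lost with the replicate block.

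The interaction is the upf1 effect with cycloheximide minus that without it. At an adjusted p under 0.05 in limma it was called negative for 31 of the 175 tested CUTs and positive for 0. Over all features the shares were 21.4% and 0.0133%. Called or not, the estimate was above 0 for 23 of the 175 CUTs and for 418 of the 7518 features. At an unadjusted p under 0.05 there were 50 lower and 2 higher, and limma-voom called 36 and 0. The median was −0.48, against −0.40 over all features. The count was 14 without WT CHX replicate 2, 14 without upf1 CHX replicate 2, 14 when libraries were scaled to mRNAs, and 51 within replicates 1 and 2 alone. The largest were CUT0908 (−2.06, SE 0.19, adjusted p = 4.10e-06), CUT0402 (−2.06), CUT0642 (−1.81), CUT0455 (−1.59) and CUT1110 (−1.57).

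CUT0402 was apart between the strains in untreated cells alone. Its density was 0.0337, 0.0424, 0.0214 and 0.0357 in WT and 0.233, 0.232, 0.185 and 0.149 in upf1, but 0.372 and 0.340 in WT CHX and 0.371 and 0.332 in upf1 CHX. The strains were apart without the drug and overlapped with it, where the log2 fold change was −0.02 (adjusted p = 0.967). CUT0455, 476 bases from AGC1, the gene for a mitochondrial aspartate-glutamate carrier, had densities of 0.0254, 0.0181, 0.0205 and 0.0316 in WT, 0.0708, 0.0851, 0.112 and 0.0836 in upf1, 0.139 and 0.144 in WT CHX, and 0.113 and 0.110 in upf1 CHX. Upf1-deleted libraries were the higher ones without the drug and the lower ones with it, where the log2 fold change of −0.30 did not pass the test (adjusted p = 0.474).

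Loss of Dcr1 on top of Upf1 changed few of these CUTs. In dcr1 upf1 against upf1 1 of the 175 was higher and 1 lower (limma), against 0.333% and 0.173% of all features, and the median log2 fold change was −0.08 (−0.17 over all features). CUT0871 (chromosome 5, 585119 to 588155, minus strand), at 3037 bases the longest of the 272, starts 1865 bases from ECM21 and overlaps SUT106 and CUT0872 on the opposite strand. Its density was 0.0667, 0.0526, 0.0564 and 0.0633 in WT, 0.109, 0.109, 0.0980 and 0.101 in upf1, 0.121 and 0.139 in WT CHX, 0.140 and 0.126 in upf1 CHX, and 0.261 and 0.256 in dcr1 upf1. The dcr1 upf1 libraries stood above all 12 others, with a log2 fold change over upf1 of 1.17 (SE 0.13, adjusted p = 5.76e-05). CUT0872 on the other strand did not pass the test (0.00).

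CUT0912 was the lower one, at 0.146 and 0.124 in dcr1 upf1 against 0.234 to 0.338 in upf1, and its log2 fold change was −0.88 (SE 0.17, adjusted p = 0.0128). That call was lost when libraries were scaled to mRNAs and without either dcr1 upf1 replicate. With no dcr1 single mutant among the groups, an effect of Dcr1 in cells with Upf1 was not measured.

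The genes of the pathways that end and degrade CUTs were counted in the same tests. Of 35 genes listed for the nuclear exosome, TRAMP, the Nrd1 complex, cytoplasmic decay and nonsense-mediated decay, 34 were found by name. In upf1 against WT 4 of the 34 were higher, where 36.2% of all tested mRNAs were. They were UPF3, the partner of Upf1 (log2 fold change 0.78), DCP1, of the decapping enzyme (0.65), RRP40, of the exosome core (0.28), and LSM1, of the decapping-activating ring (0.25). NAM7 was the only one lower. In WT CHX all 34 were higher, as were 98.1% of tested mRNAs. In dcr1 upf1 against upf1 0 passed in limma in either direction, where 13 of 5446 tested mRNAs were higher and 6 lower.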

How the data were processed

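Total RNA from the 14 cultures was depleted of ribosomal RNA and made into stranded libraries with spike-in RNA added, per the labels' protocols; the spike-ins were not analysed here. Per the submitters' processing notes, HISAT2 2.2.0, featureCounts 2.0.0, Trim Galore and DESeq2 were used, in roles those notes do not state. The build was not given in the sources used here, though 5586 of 5599 mRNAs have the coordinates of the RefSeq assembly of the type strain. The deposited signal is a read density, that is a read count divided by a library size factor and by the feature length in bases; this reading was checked: in every library 100% of values times length were whole multiples of 1 step within 0.001 reads. Densities were used as deposited, reads were recovered for depths, and 259 repeated lines of 8602 were left out. The 5 columns of group means were not used.

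Groups came from the sample titles. Overlaps and distances were computed with Python 3.11.15 from the deposited coordinates, and no sequence is shown. Tests used R 4.3.3 with limma 3.58.1 (trend and robust) on log2(density + 0.02), with 14 libraries in 1 model of 5 group means, 9 residual degrees of freedom and Benjamini-Hochberg adjustment over 7518 features. The code was tested on simulated data. Intervals on reads cover counting error only.

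The members and gene lists were chosen with earlier results of these data known. Named CUTs are the 10 (upf1 against WT) or 5 (other comparisons) largest changes each way among called CUTs with non-overlapping libraries and a mean density of at least 0.02035 in the higher group, the 5 highest in WT, and the 3 tested ones closest to a start in each orientation, with the mRNA of that start.

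Over tested mRNAs, WT and upf1 libraries of equal replicate number deviated from their group means with correlations of 0.583, 0.621, 0.432 and 0.494, which meets the criterion for a replicate block, but unequal numbers within 1 and 2 (0.630 and 0.568) and within 3 and 4 (0.550 and 0.619) correlated as well, so pairing by number is not shown apart from that split. Alternatives were other pseudocounts, no filter, mRNA-ratio scaling, the replicate block, replicates 1 and 2 alone and leaving out each library. A fit of replicates 3 and 4 by themselves and limma-voom were chosen after seeing the data.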

Additional observations from a re-analysis of the deposited data

Results flagged for a closer look

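In 72 groups of 4 libraries, Dixon's test marked 2, both of named CUTs, in which 1 library stood apart. Chance marks about 1 in 20 groups. CUT0327 had WT densities of 0.0104, 0.0102, 0.00659 and 0.0296, and the gap below replicate 4 was 0.835 of the range. CUT1197 had WT densities of 0.0137, 0.0134, 0.0139 and 0.00313, and the gap above replicate 4 was 0.954 of the range. In WT replicate 4, 1 read in a CUT of the median length of 350.5 bases is a density of 0.00343. Both marked cases thus rest on few reads.

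The effect of losing Upf1 differed between treated and untreated cells, by the interaction term in limma, for the 5 CUTs with the largest such difference. The log2 difference, with cycloheximide minus without, was −2.06 for CUT0402, −1.59 for CUT0455, −1.81 for CUT0642, −2.06 for CUT0908 and −1.57 for CUT1110. Over all tested features the median interaction was −0.40.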

How the results depend on the processing

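Of 170 counts of called CUTs under another setting, 135 stayed within 1.5 times the main count, and of 879 values of named CUTs 833 kept their direction and call, 38 lost the call, 8 gained one and 0 reversed. Why they moved was not tested. With mRNA-ratio scaling the counts became 2 lower in upf1 against WT, 49 higher and 8 lower in WT CHX against WT, 11 higher and 17 lower in upf1 CHX against upf1, 14 lower for the interaction and 0 lower in dcr1 upf1 against upf1. In upf1 CHX against WT CHX a pseudocount of 0.1 gave 17 higher and 3 lower, one of 0.005 gave 6 higher, the replicate block 16 higher and 2 lower, replicates 1 and 2 alone 22 higher and 4 lower, and limma-voom 6 higher. For the interaction a pseudocount of 0.1 gave 2 higher, one of 0.005 gave 1, the replicate block 2, and replicates 1 and 2 alone 1 higher and 51 lower. Replicates 1 and 2 alone also gave 2 lower in upf1 against WT and 3 lower in upf1 CHX against upf1. Leaving out each library gave 0 to 1 lower in upf1 against WT, 1 to 2 lower in WT CHX against WT, 2 to 4 higher in upf1 CHX against WT CHX, 0 to 1 higher and 14 to 34 lower for the interaction, and 0 to 1 lower in dcr1 upf1 against upf1. The block, which assumes pairing by number, moved no other count by over 1.5 times. The planned edgeR fit on recovered reads was not run. Depth was low, with a median of 3 to 18.5 reads per CUT and library. With no filter on low values 83 CUTs were higher in upf1 against WT, 205 in WT CHX against WT and 154 in upf1 CHX against upf1.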
